A study of Mus musculus with 15 samples.

Results

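The Slc25 genes encode the mitochondrial carrier family, and their transcripts were followed in mouse CD8+ T cells with and without Susd2, before and after stimulation. A member was any row of the count table whose symbol is Slc25a followed by a number, and 44 of 27019 gene symbols met that rule. Of these, 41 were among the 16057 genes with enough counts to be tested. The 3 that were not are Slc25a34, Slc25a41 and Slc25a43.

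The inner mitochondrial membrane is closed to most charged metabolites. Slc25 proteins carry them across it, often by exchanging one substrate for another: ADP for ATP, malate for oxoglutarate, aspartate for glutamate, citrate for malate. The carriers thereby set which products of the matrix reach the cytosol and which cofactors reach the matrix. T cells that leave rest enlarge their mitochondria and draw on citrate, aspartate and one-carbon units for growth, and all of these pass through Slc25 proteins or are made with their help. A few members lie elsewhere, such as Slc25a17 in peroxisomes and Slc25a46 in the outer mitochondrial membrane.

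All libraries came from spleens of C57BL/6 mice, 8-10 weeks old, that carry the OT-I transgene, a T cell receptor for the ovalbumin peptide OVA257-264. The genotypes were wild type (WT) and Susd2-/-, the latter lacking a membrane protein with a sushi domain. Day 0 cells were left untreated, and day 3 cells came from splenocytes stimulated with the peptide over 3 days. CD8+ T cells were then isolated with a magnetic bead kit, and poly(A) RNA was sequenced in 150-base paired ends. Each of the 4 groups (WT day 0, Susd2-/- day 0, WT day 3, Susd2-/- day 3) had 2 libraries. Neither the number of mice behind a group nor the exons missing from the Susd2 allele are given in the labels. The p-values therefore rest on the scatter of 2 libraries per group, which may be technical.

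Library totals ran from 26829807 to 53846911 counts. Levels are given in CPM, edgeR's normalised counts per TMM-scaled library size, for both libraries of a group. The targeted gene, Susd2, had 90 and 80 counts in WT and 1 and 3 in Susd2-/- libraries at day 0, and 16 and 10 against 0 and 2 at day 3. Of 10 CD8 T cell markers, 5 were lower and none higher in Susd2-/- libraries at day 0, where their sum was 5797 to 6199 CPM against 6668 to 6767 CPM in WT libraries, and at day 3 it was 3642 to 3817 CPM over both genotypes. Of 13 monocyte and macrophage markers, 8 were higher in Susd2-/- than in WT libraries at day 0 and none lower, and their sum was 149 to 158 CPM against 80.6 to 83.8 CPM. At day 3 that sum was 5.10 to 8.14 CPM in both genotypes. In each of the 4 libraries of day 3, 8 to 10 of the 13 had no count, among them Adgre1, C1qa and C1qc. Cd68, Hmox1 and Cd5l had counts in every library. Of 5 markers of cycling cells, 4 were higher in Susd2-/- libraries at day 0 (sum 280.0 to 297 against 157 to 159.9 CPM). Over all tested genes, edgeR called 11.5% higher and 12.1% lower at day 0. In bulk RNA, fewer cells of a type and less RNA per cell cannot be told apart.

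Carrier transcripts made up 0.199% to 0.212% of all counts at day 0 and 0.302% to 0.319% at day 3. Much of that came from 3 genes. Slc25a3 carries phosphate for ATP synthesis, and Slc25a4 and Slc25a5 are the ADP/ATP translocases that export the ATP. These 3 held 48.2% to 50.2% of the carrier counts at day 0 and 65.8% to 67.1% at day 3.

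Per kilobase of exon, Slc25a5 had the highest level in WT cells at day 0, 196 CPM per kb. Slc25a3 (75.8 CPM per kb) and Slc25a4 (72.5 CPM per kb) were next. The next in order were Slc25a11, the oxoglutarate/malate carrier, with 26.1 CPM per kb, then Slc25a45 (18.5), the NAD carrier Slc25a51 (15.5) and Slc25a17 (15.0 CPM per kb). The libraries of Slc25a51 and Slc25a17 overlapped on this scale, and those of the other neighbours in this order did not. The lowest tested members were Slc25a18, Slc25a2 and Slc25a21, each under 1 CPM per kb in every group. At day 3 in WT cells the order by level per kb began with Slc25a5 (624), Slc25a4 (173), Slc25a3 (137), Slc25a17 (38.4), Slc25a11 (31.6), Slc25a39 (29.9) and Slc25a1 (24.3 CPM per kb). Here the libraries of Slc25a11 and Slc25a39 overlapped, and those of the other neighbours did not. Slc25a13, 36th by level per kb in WT cells at day 0 with 1.14 CPM per kb, was 8th at day 3 with 15.2 CPM per kb. Slc25a45 went the other way, from 5th with 18.5 to 1.19 CPM per kb.

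The values of some members are uncertain. In the GENCODE M21 transcripts, 19.8% of the 75-base words of Slc25a5 also occur in another gene, and the next highest shares were 6.55% for Slc25a37, 5.52% for Slc25a36, 3.67% for Slc25a20 and 2.60% for Slc25a40. Exons of 12 of the 44 members overlap an antisense exon. For Slc25a35 the overlap, with Rangrf, covers 31.3% of its exon bases, and for the other 11 it covers at most 14.9%. Whether the counting used strand is not given in the sources used here.

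Before stimulation, 4 of 41 tested carriers were higher in Susd2-/- than in WT cells and 6 were lower. The phosphate carrier Slc25a3 and the ADP/ATP translocase Slc25a4, which serve the same ATP synthesis route, moved in opposite directions. The higher members were Slc25a3, Slc25a37, Slc25a25 and Slc25a27. The lower ones were Slc25a4, Slc25a24, Slc25a14, Slc25a35, Slc25a11 and Slc25a12. Over all 16057 genes, 11.5% were called higher and 12.1% lower by the same test (edgeR's quasi-likelihood F test, Benjamini-Hochberg adjusted p below 0.05), against 9.76% and 14.6% of the carriers, so the carriers' shares were near the background. The median log2 fold change was -0.0072 over the carriers and 0.0077 over all genes. At an unadjusted p below 0.05 there were 14 carriers. With the day 0 libraries fitted alone 13 were called, the same 10 with Slc25a28, Slc25a32 and Slc25a44, and DESeq2 called 8 and lane 1 alone 7.

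**Figure D1:**
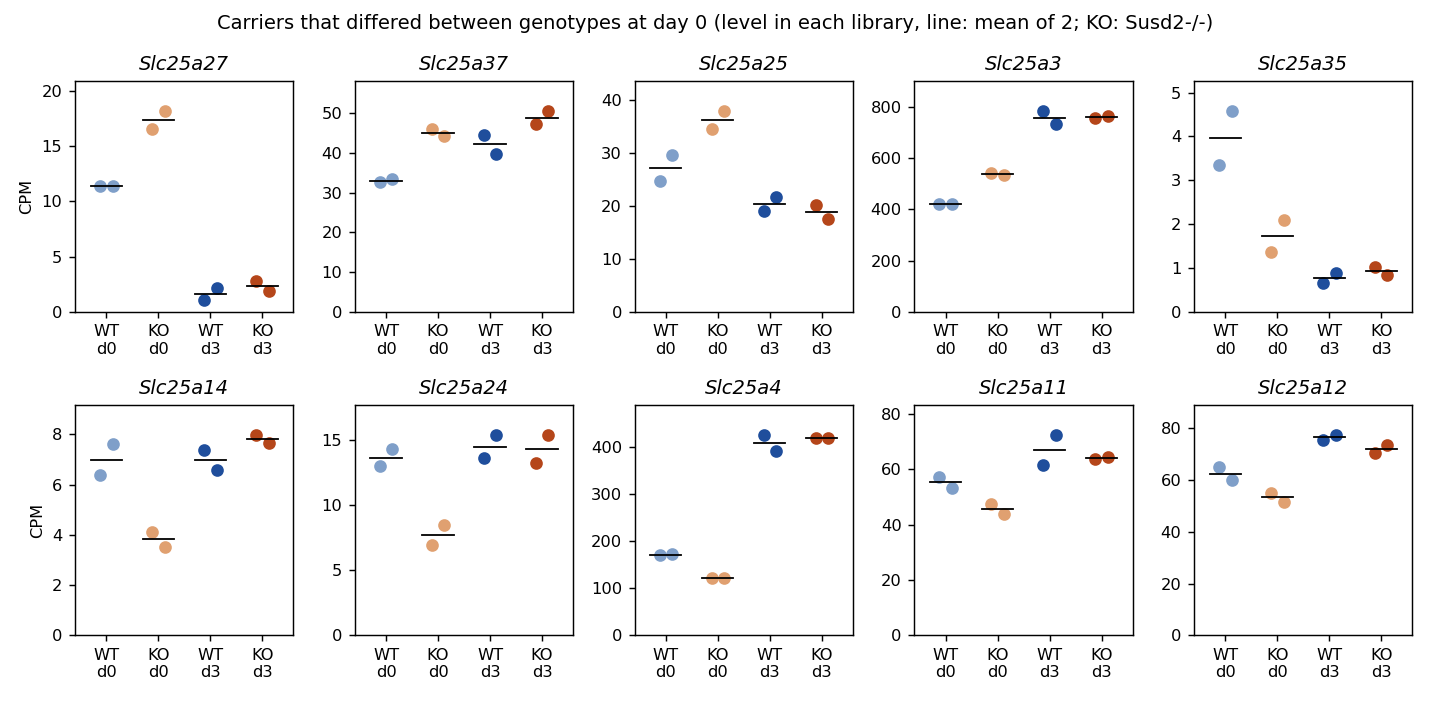
Level in CPM (vertical axis, from 0) of the 10 carriers called between genotypes at day 0, with a point for each library and a line at the mean of the 2 libraries of a group; KO marks Susd2-/-, d0 and d3 the days. At day 0 both Susd2-/- points lie on the same side of both WT points in all 10 panels, and at day 3 they overlap or lie close in most.

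Among the carriers of adenine nucleotides and phosphate, Slc25a4 (chr8:46206797-46211284, minus strand, GRCm38) had 169.8 and 171 CPM in WT and 122 and 122 CPM in Susd2-/- libraries at day 0. The groups were well apart, and the difference was -0.49 ± 0.0614 on the log2 scale (SE; adjusted p = 1.37e-05), 1.40-fold lower. Its partner translocase Slc25a5 had 326 and 319 CPM against 330.3 and 302 CPM, which overlap (-0.028 ± 0.0611, adjusted p = 0.794). Slc25a4 made up 26.7% and 27.3% of the summed level per kb of both translocases in WT and 20.5% and 22.0% in Susd2-/- libraries. Slc25a3 (chr10:91116574-91124059, minus strand) had 419.9 and 422 CPM in WT and 540.2 and 533 CPM in Susd2-/- libraries, a rise of 0.35 ± 0.0582 (adjusted p = 0.000242). Both Susd2-/- values exceeded both WT values by more than the libraries of a group differed.

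Slc25a23, Slc25a24 and Slc25a25 encode calcium-regulated carriers that exchange ATP-Mg for phosphate and so change the size of the matrix adenine nucleotide pool. They did 3 different things at day 0. Slc25a24 (chr3:109123149-109168457) fell from 13.0 and 14.3 to 6.96 and 8.51 CPM (-0.82 ± 0.157, adjusted p = 0.000875). Slc25a25 rose from 24.8 and 29.6 to 34.5 and 37.9 CPM (0.41 ± 0.119, adjusted p = 0.0157), with its call lost without WT library 3 or without Susd2-/- library 4. Slc25a23 had 28.1 and 26.4 against 29.5 and 26.5 CPM, with overlapping libraries (adjusted p = 0.882).

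The malate-aspartate shuttle moves reducing equivalents from the cytosol to the matrix, and its carriers are Slc25a11 for oxoglutarate and malate and Slc25a12 and Slc25a13 for aspartate and glutamate. Slc25a11 had 57.1 and 53.4 CPM in WT and 47.3 and 44.0 CPM in Susd2-/- libraries (-0.28 ± 0.0852, adjusted p = 0.0243). Slc25a12 had 64.9 and 59.8 against 55.0 and 51.5 CPM (-0.23 ± 0.0748, adjusted p = 0.034). Both were lower in each Susd2-/- library than in each WT library, with fitted differences of 1.21-fold and 1.17-fold. The call of Slc25a12 was lost when any 1 day 0 library was left out, and that of Slc25a11 when WT library 3, WT library 4 or Susd2-/- library 4 was. DESeq2 called neither, and Slc25a12 was also lost with RLE scaling and with no filter. Slc25a13 had 4.19 and 4.51 against 4.30 and 4.92 CPM, with overlapping libraries. Next in adjusted p came Slc25a10, the dicarboxylate carrier, with 7.59 and 6.66 against 6.17 and 4.82 CPM (adjusted p = 0.0931), and Slc25a44, a carrier of branched-chain amino acids, with 38.4 and 37.5 against 31.7 and 33.7 CPM (adjusted p = 0.0983).

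Slc25a37, or mitoferrin 1, brings iron into the matrix for haem and iron-sulphur clusters and is best known from red cell precursors. It had 32.6 and 33.5 CPM in WT and 46.0 and 44.2 CPM in Susd2-/- libraries at day 0, a rise of 0.45 ± 0.088 (adjusted p = 0.00107) with no overlap. The summed level of 8 erythroid markers was 2.94 to 3.42 CPM in WT and 2.56 to 2.75 CPM in Susd2-/- libraries at day 0. The highest of the 8 in any library was Epor, with 2.44 CPM. The part of red cell RNA in the Slc25a37 level was not tested. Slc25a28, or mitoferrin 2, had 37.1 and 36.6 against 42.1 and 43.7 CPM and was not called (adjusted p = 0.162).

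The other 3 called members are relatives of the uncoupling proteins or carriers whose substrate is unsure, and all had low levels. Slc25a27, also called UCP4, had 11.4 and 11.4 CPM in WT and 16.6 and 18.2 CPM in Susd2-/- libraries (0.61 ± 0.207, adjusted p = 0.042). Slc25a14, also called UCP5, had 6.37 and 7.62 against 4.11 and 3.52 CPM (-0.87 ± 0.199, adjusted p = 0.00349). Slc25a35 had 3.34 and 4.58 against 1.36 and 2.09 CPM (-1.20 ± 0.346, adjusted p = 0.0162). The libraries of the genotypes did not overlap for any of the 3. At day 0, 11 of 41 tested carriers lay higher and 14 lower without overlap, so separation of 2 against 2 libraries alone says little. It was not counted over all genes. Each call depended on single libraries: Slc25a27 lost it when any 1 day 0 library was left out, Slc25a14 without WT library 4 or Susd2-/- library 4, and Slc25a35 without WT library 4 or Susd2-/- library 3.

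The 2 WT libraries of day 0 differed from each other little more than sequencing lanes of a library did (chi-square per degree of freedom 3.37, against 3.01 to 3.17 between lanes), while the Susd2-/- libraries of day 0 gave 6.30. With each day 0 group treated as a single sample, Slc25a4 was the 1 carrier still called (adjusted p = 0.0238). That fit has no spread within day 0 and takes it from the day 3 libraries, whose biological coefficient of variation was 10.2% against 5.43% at day 0, so a call lost in it does not show a weaker difference. Markers of other cells also differed with genotype at day 0, where 11.5% of all genes were called higher and 12.1% lower. Macrophage and cycling-cell markers were higher and CD8 T cell markers lower in Susd2-/- libraries, as given above. Of 8 B cell markers 2 were higher and none lower (sum 603 to 667 against 529 to 539 CPM), and of 7 NK cell markers 3 were lower and none higher (49.7 to 53.1 against 65.3 CPM). Their part in the carrier differences was not tested.

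After 3 days with the peptide, no carrier was called between the genotypes. Of 41 carriers 0 were called, and over all genes edgeR called 0.0498% higher and 0.0872% lower. Without adjustment, 2 carriers had a p below 0.05, and DESeq2 and limma voom called 0 as well. Those 2 were Slc25a37, with 44.6 and 39.9 CPM in WT and 47.3 and 50.6 CPM in Susd2-/- libraries (0.21 ± 0.0863, adjusted p = 0.541), and Slc25a53, of unsure substrate, with 3.94 and 3.75 against 5.29 and 5.51 CPM (0.49 ± 0.178, adjusted p = 0.454). In both, the libraries of the genotypes did not overlap. The same held at day 3 for 9 of 41 carriers that lay higher and 5 that lay lower in Susd2-/- libraries, none of them called.

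The differences themselves were small at day 3. Over the 35 carriers with a mean of at least 5 CPM over the groups, the absolute log2 fold change between genotypes had a median of 0.066 and reached 0.51 (Slc25a27) at day 3, with a median SE of 0.103. The same 35 at day 0 had a median of 0.196 and reached 0.87 (Slc25a14), with a median SE of 0.108. For the most abundant members the day 3 values were close: Slc25a4 had 425 and 391 CPM in WT and 418 and 417 CPM in Susd2-/- libraries (0.035 ± 0.0599). Slc25a3 had 784 and 732 against 755 and 765 CPM (0.0042 ± 0.0579), and Slc25a5 had 1045 and 1008 against 1042 and 1075 CPM (0.045 ± 0.0604). The spread of each gene was fitted over both days together, which makes the SE of the days alike. The biological coefficient of variation was 10.2% at day 3 against 5.43% at day 0, so the SE of day 3 may be too small. On these SE, a difference as large as that of Slc25a4 at day 0 lies several SE outside its day 3 estimate. For low members such as Slc25a35 (0.27 ± 0.406) the day 3 estimate is wide.

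**Figure D2:**
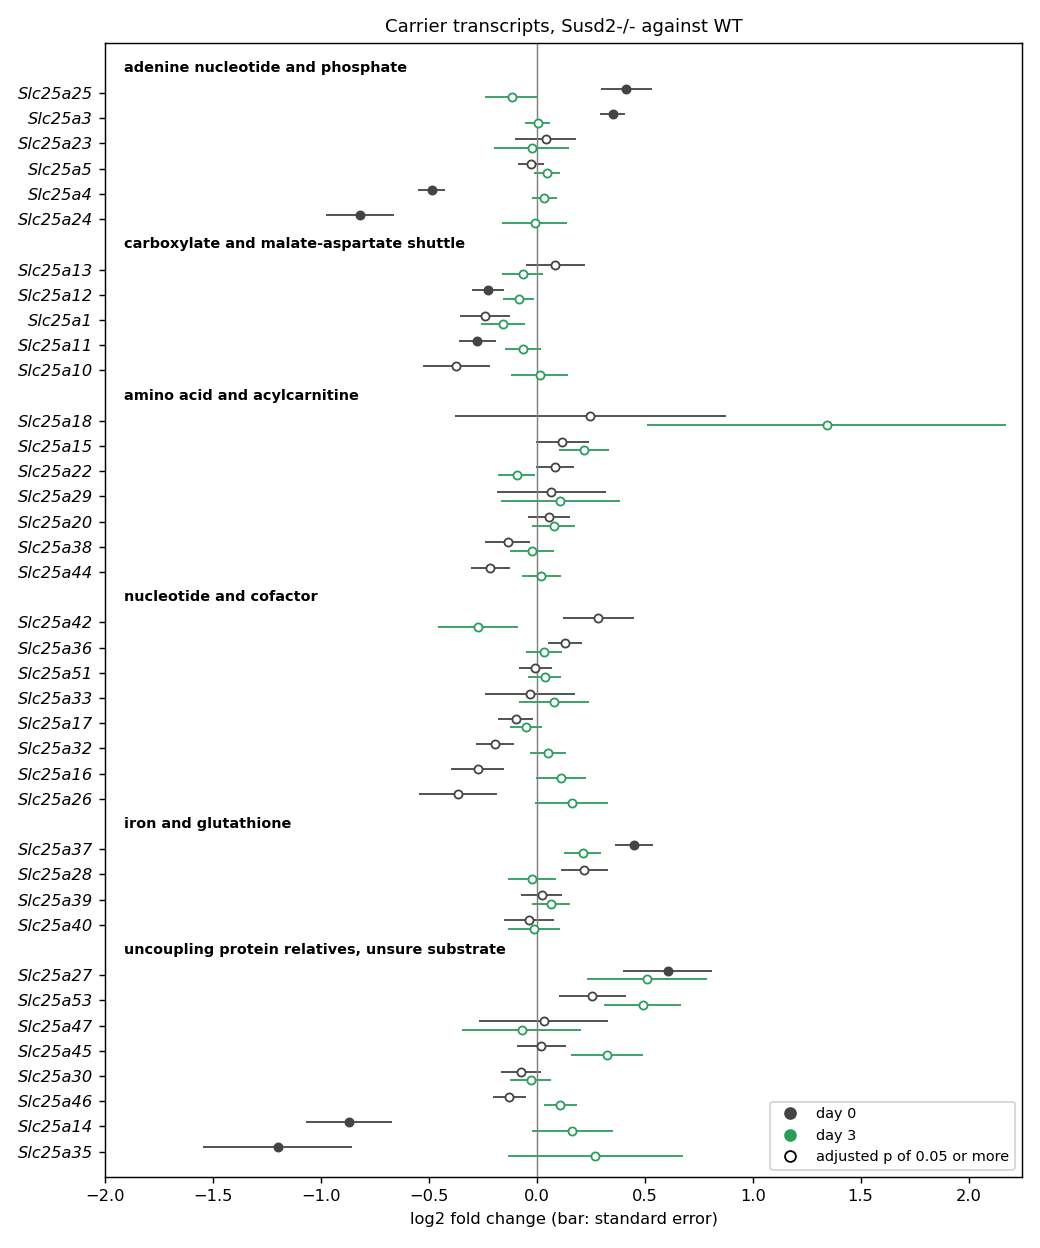
Log2 fold change of Susd2-/- against WT (horizontal axis) at day 0 (grey) and day 3 (green) for 38 of the 41 tested carriers, grouped by substrate; bars are standard errors, filled points have an adjusted p below 0.05, and Slc25a2 and Slc25a21, with no counts in a day 3 group, are left out. There are 10 filled points at day 0 and none at day 3.

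Whether the genotype difference itself changed between days was tested as an interaction. It was called for 5 of 41 carriers, 3 positive (Slc25a14, Slc25a24 and Slc25a4) and 2 negative (Slc25a3 and Slc25a25), where all genes gave 6.6% positive and 6.88% negative, near the carriers' 7.32% and 4.88%. For Slc25a4 the difference moved by 0.52 ± 0.0857 (adjusted p = 0.000491), from -0.49 ± 0.0614 at day 0 to 0.035 ± 0.0599 at day 3. For Slc25a3 it moved by -0.35 ± 0.0821 (adjusted p = 0.00848), from 0.35 ± 0.0582 to 0.0042 ± 0.0579. The interaction rests on the same libraries as the genotype comparisons, so their values are given side by side only. For carriers that did not pass this test, a change of the genotype difference between days is not shown. Of the 5 carriers called, Slc25a4 lost its interaction call in 1 of 16 alternatives, the one that treats each day 0 group as a single sample (adjusted p = 0.0606). Slc25a3 and Slc25a25 were also lost with no filter, and Slc25a14 and Slc25a25 with lane 1 alone. Single libraries ended the other calls: WT library 4 or Susd2-/- library 4 of day 0 for Slc25a14, WT library 4 or Susd2-/- library 3 of day 0 or Susd2-/- library 2 of day 3 for Slc25a24, WT library 3 or 4 or Susd2-/- library 3 of day 0 or WT library 1 of day 3 for Slc25a3, and WT library 3 or Susd2-/- library 3 or 4 of day 0 or WT library 2 or Susd2-/- library 2 of day 3 for Slc25a25.

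Most carriers changed from day 0 to day 3, about as many up as down. No group was kept for 3 days without peptide, so effects of the peptide and of time in culture cannot be told apart. From day 0 to day 3 in WT cells 17 of 41 rose and 18 fell, and in Susd2-/- cells 20 rose and 17 fell. Over all genes 36.2% rose and 39% fell in WT cells and 36.7% rose and 39.7% fell in Susd2-/- cells, against 41.5% and 43.9%, and 48.8% and 41.5%, of the carriers. The carriers' median log2 fold change was 0.086 in WT and 0.22 in Susd2-/- cells, where all genes had -0.14 and -0.12. No library is shared by these 2 comparisons, but each shares libraries with the genotype comparisons above. In both genotypes 16 carriers rose and 17 fell, and none rose in one and fell in the other. Slc25a14, Slc25a24, Slc25a26 and Slc25a46 rose with a call in Susd2-/- cells alone, Slc25a37 rose and Slc25a44 fell with a call in WT cells alone, and Slc25a38 had no call in either. Of these, the interaction test separated the genotypes for Slc25a14 and Slc25a24. Cycling-cell markers summed to 157 to 297 CPM over the day 0 libraries and 2714 to 2776 CPM over the day 3 libraries, and macrophage markers to 80.6 to 158 and 5.10 to 8.14 CPM. B cell markers summed to 529 to 667 and 261 to 291 CPM, and NK cell markers to 49.7 to 65.3 and 7.01 to 12.7 CPM. Their part in the day differences was not tested.

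**Figure D3:**
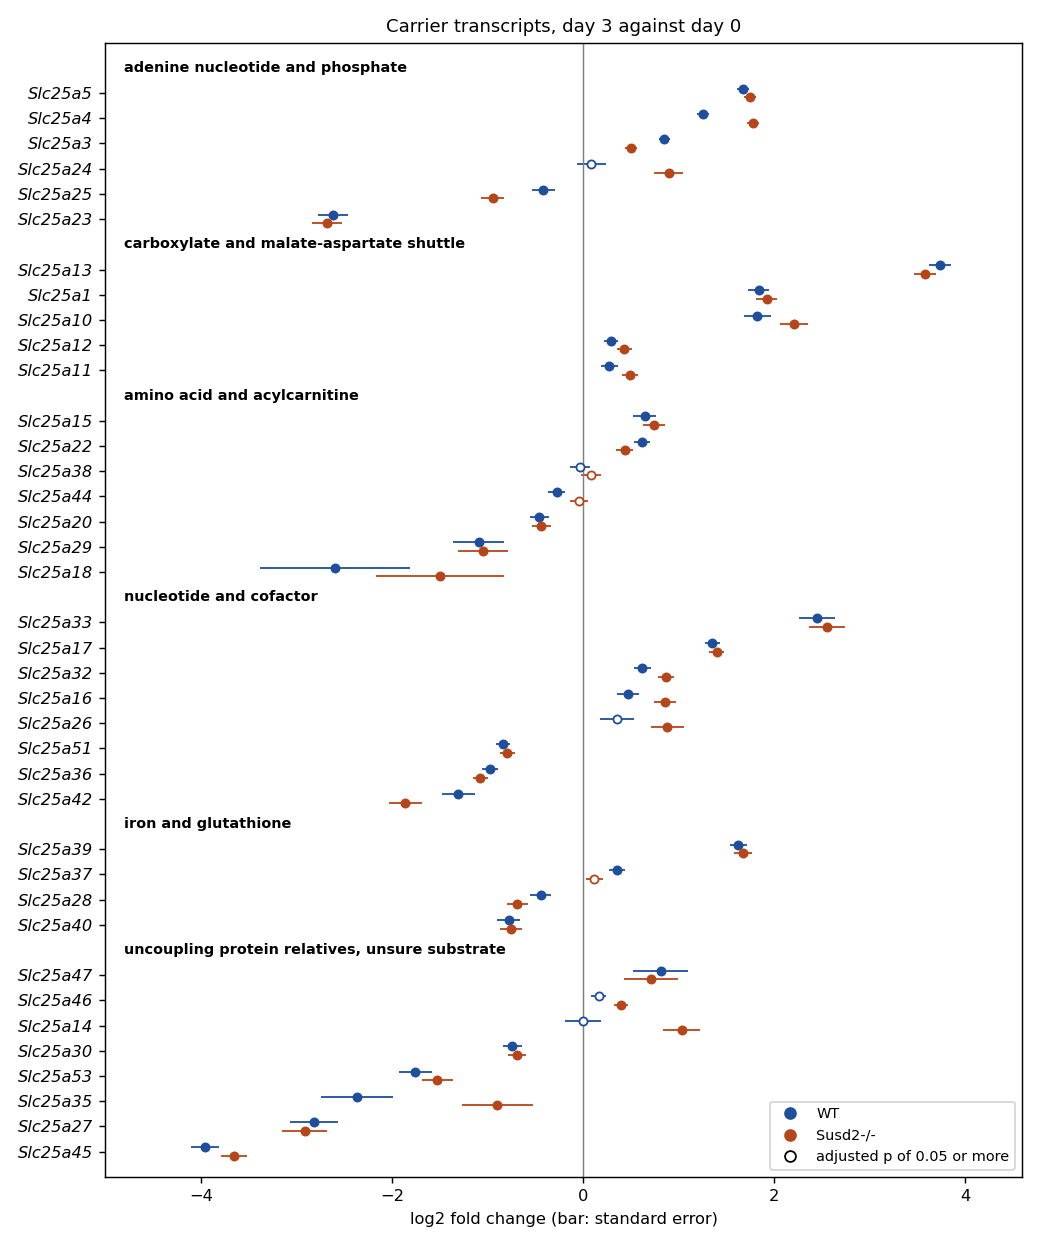
Log2 fold change from day 0 to day 3 (horizontal axis) in WT (blue) and Susd2-/- (orange) cells for 38 of the 41 tested carriers, grouped by substrate; bars are standard errors and filled points have an adjusted p below 0.05. Slc25a13 lies highest and Slc25a45 lowest in both genotypes, and Slc25a2 and Slc25a21, with no counts in a day 3 group, are left out.

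The group of adenine nucleotide and phosphate carriers had 6 tested members. Of these, 3 rose and 2 fell in WT and 4 rose and 2 fell in Susd2-/- cells. The shares over all genes were 36.2% rising and 39% falling in WT, and 36.7% and 39.7% in Susd2-/- cells. Slc25a5 had 326 and 319 CPM at day 0 and 1045 and 1008 CPM at day 3 in WT cells, and 330.3 and 302 and then 1042 and 1075 CPM in Susd2-/- cells. That was a rise of 3.18-fold in WT and 3.35-fold in Susd2-/- cells (adjusted p = 8.09e-15 and 4.24e-15). Slc25a4 rose 2.39-fold in WT cells, from 169.8 and 171 to 425 and 391 CPM, and 3.43-fold in Susd2-/- cells, from 122 and 122 to 418 and 417 CPM (adjusted p = 4.9e-13 and 3.04e-15). The day 3 levels of Slc25a4 overlapped between genotypes, so the larger fold change in Susd2-/- cells came with the lower day 0 level. Slc25a3 rose 1.80-fold in WT and 1.42-fold in Susd2-/- cells. Slc25a23, the ATP-Mg carrier highest per kb among its kind in WT cells at day 0, fell from 28.1 and 26.4 to 4.81 and 4.03 CPM in WT and from 29.5 and 26.5 to 5.12 and 3.74 CPM in Susd2-/- cells (6.14-fold and 6.42-fold lower, adjusted p = 1.85e-11 and 8.89e-12). Slc25a24 had 13.0 and 14.3 and then 13.6 and 15.4 CPM in WT cells, with overlapping libraries (adjusted p = 0.611), and rose 1.86-fold in Susd2-/- cells, to 13.3 and 15.4 CPM.

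Carriers of di- and tricarboxylates and of the malate-aspartate shuttle had 6 tested members, and 5 rose and 1 fell in each genotype. Among all genes 36.2% rose and 39% fell in WT, and 36.7% and 39.7% in Susd2-/- cells. Slc25a13, or citrin, had the largest rise of all carriers. It had 4.19 and 4.51 CPM at day 0 and 57.4 and 58.4 CPM at day 3 in WT cells, and 4.30 and 4.92 and then 53.6 and 56.9 CPM in Susd2-/- cells. The libraries of the days were far apart, with rises of 13.32-fold and 12.00-fold (adjusted p = 5.9e-16 and 9.14e-16). Slc25a12, which carries the same substrates, rose from 64.9 and 59.8 to 75.5 and 77.3 CPM in WT cells (1.22-fold) and from 55.0 and 51.5 to 70.5 and 73.5 CPM in Susd2-/- cells (1.35-fold).

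Slc25a1 exports citrate, the source of cytosolic acetyl-CoA for fatty acids and sterols. It rose from 15.4 and 13.9 to 48.5 and 56.5 CPM in WT and from 13.3 and 11.5 to 47.7 and 46.4 CPM in Susd2-/- cells (3.58-fold and 3.79-fold, adjusted p = 1.34e-11 and 7.63e-12). Slc25a10, which exchanges malate or succinate for phosphate, rose from 7.59 and 6.66 to 25.6 and 25.0 CPM in WT and from 6.17 and 4.82 to 26.5 and 24.6 CPM in Susd2-/- cells (3.55-fold and 4.63-fold). The oxoglutarate/malate carrier Slc25a11 changed less, 1.21-fold and 1.40-fold higher. Slc25a21, the oxodicarboxylate carrier of lysine breakdown, had 8 and 10 counts in WT and 22 and 6 counts in Susd2-/- libraries at day 0 and none at day 3. Set against 3 counts over the day 3 group, it was at least 5.80-fold lower in WT and at least 12.3-fold lower in Susd2-/- cells, bounds that cover counting error only. The Susd2-/- bound rests on library 3, and library 4 alone gave 5.50-fold.

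The promoters of these members can be set beside their changes. RefSeq (GRCm38.p6) gave 250 bases before a transcription start for 33 of the 44 carriers. The E-box letters CACGTG, which read the same on both strands and are known as a site for Myc, Usf and Mlx family factors among others, occurred there in 6 of 33 carriers (18.2%), against 6.86% of 27025 genes with such a promoter. Those 27025 genes were not limited to the 16057 tested here, and the share among tested genes was not counted. The 6 carriers with the E-box were Slc25a1, Slc25a13, Slc25a14, Slc25a15, Slc25a33 and Slc25a36. Of the 15 carriers with a promoter entry that rose in both genotypes, 4 held it (Slc25a1, Slc25a13, Slc25a15 and Slc25a33). Of the 13 that fell in both, 1 held it (Slc25a36). The stretches below show it in the strongest riser, in the citrate carrier and in the faller, with the E-box in capitals. In Slc25a36 the second run of capitals is the letters TGACGTCA, a cyclic AMP response element, found in 2 of 33 carriers (6.06%) and in 1.77% of all genes. All 3 lie on the minus strand and are written 5′ to 3′ along the gene.
Slc25a13, chr6:6217234-6217353: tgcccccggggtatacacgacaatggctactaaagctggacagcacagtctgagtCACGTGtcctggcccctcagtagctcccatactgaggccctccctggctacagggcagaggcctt
Slc25a1, chr16:17928350-17928469: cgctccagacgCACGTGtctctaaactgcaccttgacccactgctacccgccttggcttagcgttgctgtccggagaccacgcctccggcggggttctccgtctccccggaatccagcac
Slc25a36, chr9:97111172-97111291: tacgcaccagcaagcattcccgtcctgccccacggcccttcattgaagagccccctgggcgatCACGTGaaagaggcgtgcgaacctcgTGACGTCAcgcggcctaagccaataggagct

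The E-box begins 125 bases before the RefSeq start of Slc25a13, 239 before that of Slc25a1 and 187 before that of Slc25a36. These matches describe letters in a fixed window and no binding was measured. A site for the factor NRF1, searched for in the same windows, was in 0 of 33 carriers and in 0.877% of all genes. An ETS-type site (CCGGAAGT, both strands) was in 1 of 33 carriers, Slc25a20, and in 3.23% of all genes.

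Of 8 tested carriers of amino acids and acylcarnitine, 2 rose and 5 fell in WT cells, and 2 rose and 4 fell in Susd2-/- cells, where 39% and 39.7% of all genes fell. In Susd2-/- cells 2 of the falls, those of Slc25a2 and Slc25a18, were lost with DESeq2 and with no filter. Slc25a22, a glutamate carrier, rose from 37.4 and 42.1 to 61.3 and 60.6 CPM in WT and from 45.1 and 39.2 to 57.6 and 56.6 CPM in Susd2-/- cells. Slc25a15, the ornithine carrier of the urea cycle and polyamine routes, rose 1.56-fold and 1.67-fold. Slc25a20, which brings acylcarnitines into the matrix for fatty acid oxidation, fell 1.37-fold and 1.36-fold, from 30.7 and 31.5 to 22.6 and 22.7 CPM in WT cells.

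Slc25a29, a carrier of basic amino acids, fell from 4.19 and 4.51 to 1.78 and 2.30 CPM in WT and from 4.65 and 4.44 to 1.85 and 2.48 CPM in Susd2-/- cells (2.13-fold and 2.07-fold lower). The glycine carrier Slc25a38, which feeds haem synthesis, had 31.2 and 26.9 CPM at day 0 and 28.5 and 28.5 CPM at day 3 in WT cells, with overlapping libraries. Slc25a44 had 38.4 and 37.5 and then 32.0 and 30.6 CPM in WT cells (adjusted p = 0.0109). Slc25a2, a second ornithine carrier, had 18 and 11 counts in WT cells at day 0 and none at day 3, at least 9.34-fold lower against 3 counts over the group. In Susd2-/- cells it had 16 and 8 counts, and then 2 and 4. The calls of Slc25a2 and of the low glutamate carrier Slc25a18 in Susd2-/- cells (adjusted p = 0.0325 and 0.0491) held in 4 of 14 and 5 of 15 alternatives.

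Of 9 nucleotide and cofactor carriers, 4 rose and 3 fell in WT and 5 rose and 3 fell in Susd2-/- cells. All genes gave 36.2% rising and 39% falling in WT, and 36.7% and 39.7% in Susd2-/- cells. Slc25a33, which brings pyrimidine nucleotides into mitochondria, rose from 3.22 and 4.99 to 24.0 and 20.5 CPM in WT and from 4.49 and 3.49 to 22.4 and 24.6 CPM in Susd2-/- cells (5.45-fold and 5.88-fold, adjusted p = 1.14e-09 and 5.48e-10). Slc25a36, also a pyrimidine nucleotide carrier, fell from 58.5 and 60.0 to 30.2 and 30.0 CPM and from 62.3 and 67.3 to 31.8 and 29.9 CPM (1.97-fold and 2.11-fold lower). In both, the libraries of the days lay apart in each genotype. The peroxisomal Slc25a17 rose from 43.5 and 42.0 to 112 and 107 CPM in WT and from 42.4 and 37.5 to 102 and 109 CPM in Susd2-/- cells (2.55-fold and 2.64-fold).

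Slc25a32, the carrier of folate and FAD, rose 1.54-fold in WT and 1.82-fold in Susd2-/- cells. Slc25a16, linked to coenzyme A, rose 1.39-fold and 1.81-fold. Slc25a42, which carries coenzyme A itself, fell from 11.2 and 10.0 to 4.49 and 4.07 CPM in WT and from 12.8 and 13.0 to 3.50 and 3.58 CPM in Susd2-/- cells (2.47-fold and 3.63-fold lower). The NAD carrier Slc25a51 fell from 87.3 and 83.5 to 47.0 and 48.7 CPM in WT and from 89.6 and 80.3 to 50.2 and 48.0 CPM in Susd2-/- cells (1.79-fold and 1.73-fold lower). The S-adenosylmethionine carrier Slc25a26 had 6.91 and 8.37 and then 10.6 and 8.95 CPM in WT cells (adjusted p = 0.071) and rose 1.84-fold in Susd2-/- cells.

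The 4 carriers of iron and glutathione split evenly in WT cells, where 2 rose and 2 fell, and in Susd2-/- cells 1 rose and 2 fell. The all-gene shares were 36.2% rising and 39% falling in WT, and 36.7% and 39.7% in Susd2-/- cells. Slc25a39, the glutathione carrier, rose from 27.3 and 26.0 to 78.9 and 85.9 CPM in WT and from 30.0 and 24.1 to 85.3 and 87.2 CPM in Susd2-/- cells (3.09-fold and 3.19-fold, adjusted p = 6.04e-12 and 3.52e-12). Its relative Slc25a40 fell 1.71-fold and 1.69-fold. Slc25a37 rose 1.28-fold in WT cells (adjusted p = 0.00135) and had adjusted p = 0.216 in Susd2-/- cells, where its day 0 level was already 46.0 and 44.2 CPM. Slc25a28 fell 1.36-fold and 1.61-fold.

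The uncoupling protein relatives and carriers of unsure substrate had 8 tested members. Of these, 1 rose and 5 fell in WT and 3 rose and 5 fell in Susd2-/- cells. Among all genes 36.2% rose and 39% fell in WT, and 36.7% and 39.7% in Susd2-/- cells. Slc25a45 had the largest fall of the members with counts in every library. It had 50.7 and 51.5 CPM at day 0 and 3.62 and 2.94 CPM at day 3 in WT cells, and 52.0 and 51.8 and then 3.33 and 4.71 CPM in Susd2-/- cells (15.54-fold and 12.60-fold lower, adjusted p = 7.66e-15 and 1.01e-14). Slc25a27 fell from 11.4 and 11.4 to 1.1 and 2.16 CPM and from 16.6 and 18.2 to 2.80 and 1.91 CPM (7.05-fold and 7.54-fold lower). Both were left with a few CPM at day 3.

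Slc25a53 fell from 12.2 and 13.9 to 3.94 and 3.75 CPM in WT and from 14.5 and 16.7 to 5.29 and 5.51 CPM in Susd2-/- cells (3.38-fold and 2.88-fold lower). Slc25a30, an uncoupling protein relative, fell 1.67-fold and 1.62-fold. Slc25a14 had 6.37 and 7.62 and then 7.36 and 6.58 CPM in WT cells and rose 2.04-fold in Susd2-/- cells, to 7.98 and 7.66 CPM. Slc25a46, whose protein shapes the outer membrane and cristae, had adjusted p = 0.0625 in WT cells and rose 1.32-fold in Susd2-/- cells. Slc25a47 rose 1.76-fold and 1.64-fold from about 2 CPM, and Slc25a35 fell 5.17-fold and 1.86-fold. In Susd2-/- cells the call of Slc25a35 held in 6 of 16 alternatives and that of Slc25a47 in 10 of 16. In WT cells 4 day calls ended without 1 library of the comparison: Slc25a11 and Slc25a25 without library 4 of day 0 (Slc25a11 also without library 2 of day 3), Slc25a44 without library 3 of day 0 or library 2 of day 3, and Slc25a47 without library 4 of day 0 or library 1 of day 3.

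Because several substrates have a pair of carriers, the make-up of 6 such pairs, chosen with these results known, was followed by level per kb and is given as a description. In WT libraries Slc25a13 made up 11.1% and 12.7% of Slc25a13 plus Slc25a12 at day 0, and 59.5% and 59.3% at day 3. In Susd2-/- libraries its share was 13.1% and 15.6%, and then 59.5% and 60.0%. Slc25a33 made up 20.8% to 29.7% of Slc25a33 plus Slc25a36 over the 4 day 0 libraries and 77.6% to 80.7% over the 4 day 3 libraries. By level per kb, the larger member of each of these pairs thus changed between the days in both genotypes. In CPM the larger member stayed the same. In WT libraries at day 3, Slc25a12 had 75.5 and 77.3 CPM against 57.4 and 58.4 CPM for Slc25a13. Slc25a36 had 30.2 and 30.0 CPM against 24.0 and 20.5 CPM for Slc25a33. The order was the same in Susd2-/- libraries. The change of order rests on exon length, 7342 bases for Slc25a12, 3798 for Slc25a13, 9594 for Slc25a36 and 1887 for Slc25a33.

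Slc25a39 made up 72.3% to 77.1% of Slc25a39 plus Slc25a40 at day 0 and 93.7% to 94.6% at day 3. Slc25a24 made up 41.7% and 45.5% of Slc25a24 plus Slc25a23 in WT and 26.7% and 33.1% in Susd2-/- libraries at day 0, and 80.0% to 86.4% over the 4 libraries of day 3. Slc25a37 made up 35.4% to 40.5% of the mitoferrin pair at day 0 and 47.7% to 57.5% at day 3. The translocase pair moved least, with Slc25a4 at 20.5% to 27.3% at day 0 and 21.3% to 22.1% at day 3.

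**Figure D4:**
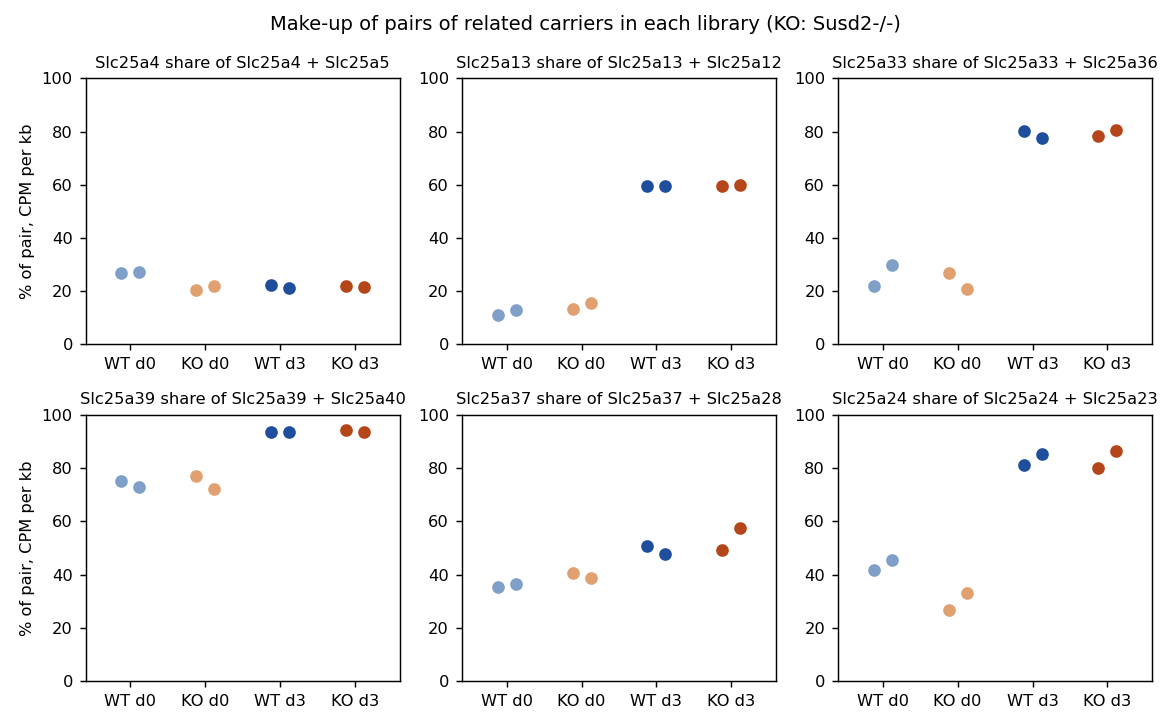
Share of the first carrier of each of 6 related pairs in the pair's summed CPM per kb (vertical axis, percent, from 0 to 100), with a point for each library; KO marks Susd2-/-, d0 and d3 the days. The share of Slc25a13 rises from at most 15.6% at day 0 to at least 59.3% at day 3, while that of Slc25a4 stays between 20.5% and 27.3%.

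New carriers enter mitochondria through the TOM complex and the small TIM chaperones. Of 15 tested genes of carrier import, 8 were lower and none higher in Susd2-/- than in WT cells at day 0, and 14 rose and none fell by day 3 in each genotype. Over all genes 12.1% were lower and 11.5% higher at day 0, and 36.2% and 36.7% rose by day. The median of the 15 log2 fold change was -0.21 between genotypes at day 0, and 1.23 in WT and 1.43 in Susd2-/- cells by day. Tomm7, a small TOM subunit, had 65.9 and 59.2 CPM in WT and 39.8 and 35.4 CPM in Susd2-/- libraries at day 0 (-0.73 ± 0.0857, adjusted p = 6.06e-06). Tomm40, the channel of the complex, had 36.4 and 34.8 CPM at day 0 and 269 and 258 CPM at day 3 in WT cells (7.40-fold). At day 3 none of the 15 was called between genotypes by edgeR, and none had an unadjusted p below 0.05. In the interaction 5 of the 15 were called positive and 1 negative, where all genes gave 6.6% and 6.88%. Among the positive was Tomm7 (0.85 ± 0.118, adjusted p = 0.000113).

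A further list held carrier genes outside the symbol rule. It includes Ucp2, Mtch1 and Mtch2, which are family members under other symbols, the pyruvate carrier subunits and the sideroflexins. Of its 10 tested genes, 2 were lower and none higher in Susd2-/- cells at day 0 (median log2 fold change -0.19). Ucp2, not called, had 386 and 372 CPM in WT and 448 and 414 CPM in Susd2-/- libraries at day 0. Mpc1, a subunit of the pyruvate carrier, had 12.9 and 14.9 against 9.72 and 9.43 CPM (adjusted p = 0.00508), and Sfxn3 had 64.7 and 64.5 against 53.4 and 54.1 CPM (adjusted p = 0.0412). Over all genes 12.1% were lower. By day 3, 5 rose and 4 fell in WT and 6 rose and 3 fell in Susd2-/- cells (medians 0.30 and 0.48). Of all genes, 36.2% and 36.7% rose and 39% and 39.7% fell. Sfxn1, a serine carrier, rose from 44.4 and 44.2 to 223 and 206 CPM in WT cells, while its relative Sfxn3 fell from 64.7 and 64.5 to 3.75 and 4.25 CPM.

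Of 48 enzymes that make or use the carriers' substrates, 6 were higher and 9 lower in Susd2-/- cells at day 0 (median log2 fold change -0.057). These shares, 12.5% and 18.8%, were near the 11.5% and 12.1% over all genes. Mdh1, the cytosolic malate dehydrogenase of the malate-aspartate shuttle, had 186 and 179.8 CPM in WT and 124 and 119.7 CPM in Susd2-/- libraries (-0.59 ± 0.0657, adjusted p = 3.93e-06). The other dehydrogenase and the transaminases of the shuttle, Mdh2, Got1 and Got2, were not called and had overlapping libraries (adjusted p = 0.505, 0.283 and 0.74). At day 3 Mdh1 had 180.3 and 200.4 against 188 and 192 CPM, and 0 of the 48 were called by edgeR (1 at an unadjusted p below 0.05). From day 0 to day 3, 33 rose and 11 fell in WT and 36 rose and 7 fell in Susd2-/- cells (medians 0.78 and 0.95). Of all genes, 36.2% and 36.7% rose and 39% and 39.7% fell. Mthfd2, of mitochondrial one-carbon metabolism, rose 12.29-fold in WT cells, and Dut, which makes dUMP, rose 11.89-fold.

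The 3 untested members had few counts. Slc25a41 had 4 and 2 counts in WT libraries at day 3 and none elsewhere, Slc25a34 had at most 7 counts in a library and none at day 3, and Slc25a43 had at most 10. Their differences between groups were not detectable at this depth.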

How the data were processed

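The deposited table held raw counts, whole numbers per gene symbol with no normalization, in 15 columns of 1 sequencing lane each, per the file header and values. Tools listed in the submitters' processing notes, without roles, are HISAT2 2.1.0, Subread 2.0.1, fastp 0.23.2 and SAMtools 1.10, with the GRCm38 build. Of the annotation release and the handling of strand and multiple alignments nothing is said there. Lanes were summed per library (WT day 3 library 2 had 1 lane), giving 8 libraries of 26829807 to 53846911 counts. Genes were kept by filterByExpr (16057 of 27019), and 1 model over the 4 groups was fitted with edgeR 4.0.16 in R 4.3.3, with TMM scaling and the robust quasi-likelihood F test. The p-values were adjusted by Benjamini-Hochberg over all tested genes, and "rose", "fell" and "called" mean an adjusted p below 0.05. The SE of a log2 fold change is its size over the square root of F. Every adjusted p is edgeR's. The procedure was run on simulated counts for the day 0 genotype comparison only, with the spread taken from these data. The other comparisons were not simulated, and whether the libraries are biological replicates cannot be checked that way.

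Exon lengths, coordinates and shared 75-base words came from GENCODE M21 (GRCm38). CPM per kb divides CPM by the merged exon length. Promoters came from RefSeq. One carrier that enters the counts is not reported here by name or in the plots. The members, roles, lists and motifs were chosen with earlier results of these data known. Values per library are given for carriers called in the interaction, the 12 of smallest adjusted p at day 0, and the 8 rising and 8 falling carriers of largest fold change called in both genotypes at a mean log2 CPM of at least 1, and for further members as description. From each list of related genes only those among the 4 of smallest adjusted p in a comparison are named. Mdh2, Got1 and Got2 are exceptions, given as the other shuttle enzymes beside Mdh1. Ucp2, Mtch1 and Mtch2 are named whatever their adjusted p, as family members under other symbols. Alternatives were RLE scaling, DESeq2 1.42.0, limma 3.58.1 voom, no filter, a stricter filter, leaving out each library, the library number as a block, lane 1 alone, each day fitted alone, and each day 0 group treated as a single sample.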

Additional observations from a re-analysis of the deposited data

Results flagged for a closer look

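For 5 carriers the genotype difference at day 3 differed from that at day 0 by the interaction test of edgeR (adjusted p below 0.05), given here as the day 3 difference minus the day 0 difference on the log2 scale. It was 1.03 ± 0.273 for Slc25a14 (adjusted p = 0.0167), 0.81 ± 0.216 for Slc25a24 (adjusted p = 0.0179) and 0.52 ± 0.0857 for Slc25a4 (adjusted p = 0.000491), whose day 0 levels were lower in both Susd2-/- libraries. It was -0.53 ± 0.171 for Slc25a25 (adjusted p = 0.0452) and -0.35 ± 0.0821 for Slc25a3 (adjusted p = 0.00848), whose day 0 levels were higher in both. With each day 0 group treated as a single sample, none of the 5 was called, in a fit that takes its spread from the day 3 libraries alone (biological coefficient of variation 10.2%, against 5.43% at day 0).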

How the results depend on the processing

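With 2 libraries a group, the counts of carriers called at day 0 and in the interaction rest on few libraries. At day 0, leaving out 1 library at a time gave 5 to 10 carriers, and treating each day 0 group as a single sample gave 1, against 10. Day 0 fitted alone gave 13, DESeq2 8 and lane 1 alone 7. In the interaction the same settings gave 2 to 6 and 0, no filter gave 3 and lane 1 alone gave 3, against 5. Fewer samples or reads entered the fits without a library, with single samples and with lane 1, and with single samples the spread comes from the day 3 libraries alone. With no filter the cause was not tested. At day 3 no alternative called a carrier. The day comparisons gave 31 to 35 carriers in WT and 32 to 38 in Susd2-/- cells. Over all genes, 3792 were called at day 0, 725 with each day 0 group as a single sample, 5627 with day 0 fitted alone and 2044 to 4410 without 1 library. The all-gene count at day 3, 22 here, ranged from 1 to 392, and in the interaction from 364 to 2498 (2164 here).

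Of the 10 day 0 calls, Slc25a4 held in all 17 alternatives, and Slc25a3, Slc25a24 and Slc25a37 in 16. No direction reversed. With the library number as a replicate block, 9 carriers were called at day 0 (Slc25a27 was lost), 0 at day 3, 31 and 34 by day in WT and Susd2-/- cells, and 4 in the interaction. The labels do not say whether the numbers pair the libraries. Deviations of same-numbered libraries correlated at 0.0086 at day 0 and -0.010 at day 3, and a shared origin was not tested.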
